A study of Mus musculus with 7 samples.

Results

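Cell cycle genes were examined in the posterior second heart field of *Shh* null and wild-type mouse embryos. The 42 genes were fixed by name, from cyclins and their kinases to the genes of DNA replication and mitosis, out of 21475 genes named on the array. All 42 were on the array, the brightest probe of each was well above background on all 7 arrays, and all 42 were tested. RNA came from pooled tissue of E9.5 embryos, 4 pools of -/- (Shh mutant) and 3 pools of +/+ (wild type), each hybridized to 1 single-colour Agilent array. All embryos came from superovulated Shh +/- females mated to Shh +/- males on a mixed background labelled C56B/6 and CD-1, and no agent was given to the embryos. The null allele is present in every cell, and the dissection took the attached foregut along with the heart field mesenchyme, so that the RNA is a mixture of tissues. For numbers 1, 3 and 4, the mutant and the wild-type pool of a number were on the same slide, always with the mutant at array position 1 and the wild type at position 2. The effects of position and genotype therefore cannot be told apart. The slide of mutant pool 2 held no wild-type pool, and its label notes a possible leak during hybridization.

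Cells commit to division in G1, when D-type cyclins with *Cdk4* and *Cdk6*, and then E-type cyclins with *Cdk2*, inactivate the retinoblastoma protein and release E2F factors. E2F factors drive genes that license and copy DNA, and a later wave of genes, many with a CHR element in their promoter, carries the cell through mitosis. CDK inhibitors such as *Cdkn1b* and *Cdkn1c* hold the kinases back. Hedgehog signalling is known to raise *Ccnd1*, *Ccnd2* and *Mycn* in several progenitor tissues, the cerebellum among them, and these genes are therefore described apart from those of S phase and mitosis.

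The promoters of the members hold letters known from both waves. RefSeq promoter windows on GRCm38.p6, each 250 bases before to 50 bases after a start site, were at hand for 33 of the 42 members and for 27025 genes in all. The E2F letters TTTCCCGC, TTTCGCGC, TTTGCCGC or TTTGGCGC, on either strand and counted also where they overlapped, were in 6 of 10 S phase members with a window, in 0 of 13 mitosis members and in 2.6% of all genes. The CHR letters TTTGAA or TTCGAA, on either strand, were in 10 of 13 mitosis members, in 2 of 10 S phase members and in 21.7% of all genes. The letters CCAAT, which binds NF-Y, were in 12 of 13 mitosis members, 8 of 10 S phase members and 41.1% of all genes. The GLI letters GACCACCCA were in none of the 33 windows and in 0.289% of all genes, which says only that these letters are not in these windows. Of the Hedgehog-linked genes only *Mycn* had a window, and it held both E2F and CHR letters. A match of letters is a description and not a binding site. The stretches printed here lie before the start site, read 5′ to 3′ along the gene, and have the E2F letters in capitals for the licensing genes *Mcm6* (chr1:128359725-128359835, minus strand), *Mcm5* (chr8:75109336-75109387, plus strand) and *Cdc6* (chr11:98907993-98908040, plus strand) and for *Mycn* (chr12:12941977-12942039, minus strand).
Mcm6: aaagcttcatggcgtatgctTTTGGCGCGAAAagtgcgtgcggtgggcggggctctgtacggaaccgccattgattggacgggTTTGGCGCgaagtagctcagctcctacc
Mcm5: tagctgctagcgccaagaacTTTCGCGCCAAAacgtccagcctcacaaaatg
Cdc6: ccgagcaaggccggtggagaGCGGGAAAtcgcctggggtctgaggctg
Mycn: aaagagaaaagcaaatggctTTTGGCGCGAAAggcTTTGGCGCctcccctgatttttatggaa

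Of the mitosis genes, *Cdc20* (chr4:118437344-118437381, minus strand), *Kif11* (chr19:37376343-37376381, plus strand) and *Mki67* (chr7:135716452-135716515, minus strand) are shown in the same way, with the CHR letters in capitals.
Cdc20: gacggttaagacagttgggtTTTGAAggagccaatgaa
Kif11: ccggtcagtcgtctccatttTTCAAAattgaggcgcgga
Mki67: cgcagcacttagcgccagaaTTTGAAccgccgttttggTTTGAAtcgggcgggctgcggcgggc

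Between 60.0% and 70.6% of the 41174 probes were well above background on an array, no spot was saturated, and the number of arrays limits the precision. *Shh* read 9.67, 9.39, 9.22 and 9.32 in mutant pools 1 to 4 and 10.72, 10.74 and 9.98 in wild-type pools 1, 3 and 4, a change of −1.08 (limma adjusted p = 0.0653). These values are log2 intensities after normalization, and changes are mutant minus wild type. Whether this probe lies in the deleted part of the gene is not given in the sources used here. *Hhip*, a Hedgehog target that binds the ligand, fell by 2.83 (limma adjusted p = 0.00126). The 7 genes of the Hedgehog response list were all lower in every mutant pool than in any wild-type pool, against 3.56% of all probes tested. Of the 7, 2 passed an adjusted p of 0.05 (limma), against 0.558% of all probes tested. The list is not independent of these data, since it holds *Shh* itself, and *Foxf1a* and *Foxf2*, which the authors named as Hedgehog targets partly from these arrays. All 14 second heart field markers passed the filter on dim probes. Relative to the wild-type mean, their mean lay at −0.26 to −0.05 in the mutant pools, against −0.02 to 0.02 in the wild-type pools, with 9 of 14 lower. At an unadjusted p under 0.05, 4 of them were lower and 2 higher, against 3.99% and 3.96% of all probes tested. None passed the adjusted threshold. Markers of some other tissues also differed with genotype, and their calls at the adjusted threshold stand beside 0.558% of all probes tested. The mean of 9 liver bud markers lay 0.61 to 1.13 above the wild-type mean in the mutant pools, against −0.15 to 0.20 in the wild-type pools, with all 9 higher and 4 past an adjusted p of 0.05. The mean of 7 sclerotome markers lay at −1.06 to −0.62 against −0.13 to 0.26, with 4 of 7 lower and 2 past the threshold. Those were *Pax1* (−3.01) and *Pax9* (−2.55), which carried the mean, since the median of the list was −0.07 and *Scx* was 0.49 higher (limma, unadjusted p = 0.0214). The mean of 9 neural crest and arch markers lay at −0.66 to −0.30 against −0.07 to 0.11, with 7 of 9 lower and 2 past the threshold, *Dlx1* (−1.55) and *Dlx2* (−1.27). The foregut mean lay at −0.18 to −0.16 against −0.05 to 0.07, with 7 of 9 lower and no call at the adjusted threshold. The erythroid mean lay at −0.64 to −0.19 against −0.31 to 0.57, with all 10 markers lower on average. The cardiomyocyte mean lay at −0.41 to 0.81 against −0.48 to 0.35, with all 10 higher. The endothelial mean lay at −0.15 to 0.28 against −0.11 to 0.06, with 8 of 9 higher. The mean of the 4 neural tube markers tested lay at −1.01 to 0.23 against −0.05 to 0.10, with all 4 lower. In these lists the pools of the genotypes overlapped, and none had a call at the adjusted threshold. In bulk RNA, fewer cells of a type and less RNA per cell cannot be told apart, and the part of these tissues in the values below was not tested.

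None of the 42 cell cycle genes differed between genotypes at an adjusted p under 0.05 (limma), where 0.558% of the 23129 probes tested did. At an unadjusted p under 0.05, 1 member was higher (*Cdkn1c*) and 0 were lower, against 3.96% of probes higher and 3.99% lower, 7.96% in either direction. No member had all mutant pools above or all below the wild-type pools, against 4.78% and 3.56% of probes. Of the 42 changes, 24 were above and 18 below 0, with a median of 0.01 beside 0.02 for all probes tested. Their SD was 0.11, beside 0.24 for all probes tested. The members were read by their brightest probe and the probes tested include dimmer ones, so these SDs are not compared at like brightness.

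The intervals say how large a change these arrays could have missed. The 95% interval of the change lay within 2-fold in either direction for all 42 members, against 93.9% of all probes tested. It lay within 1.5-fold for 40 of 42, the exceptions being *Cdkn1c* and *Cdk2*, against 72.3% of probes, and within 1.25-fold for 9 of 42, against 15.1%. For the other members a change of 1.25-fold in at least 1 direction lay inside the interval. Within a genotype, the SD between pools had a median of 0.16 over the members and 0.19 over all probes tested. Members and probes were not matched for brightness here either, so the shares do not set the members apart.

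**Figure D1:**
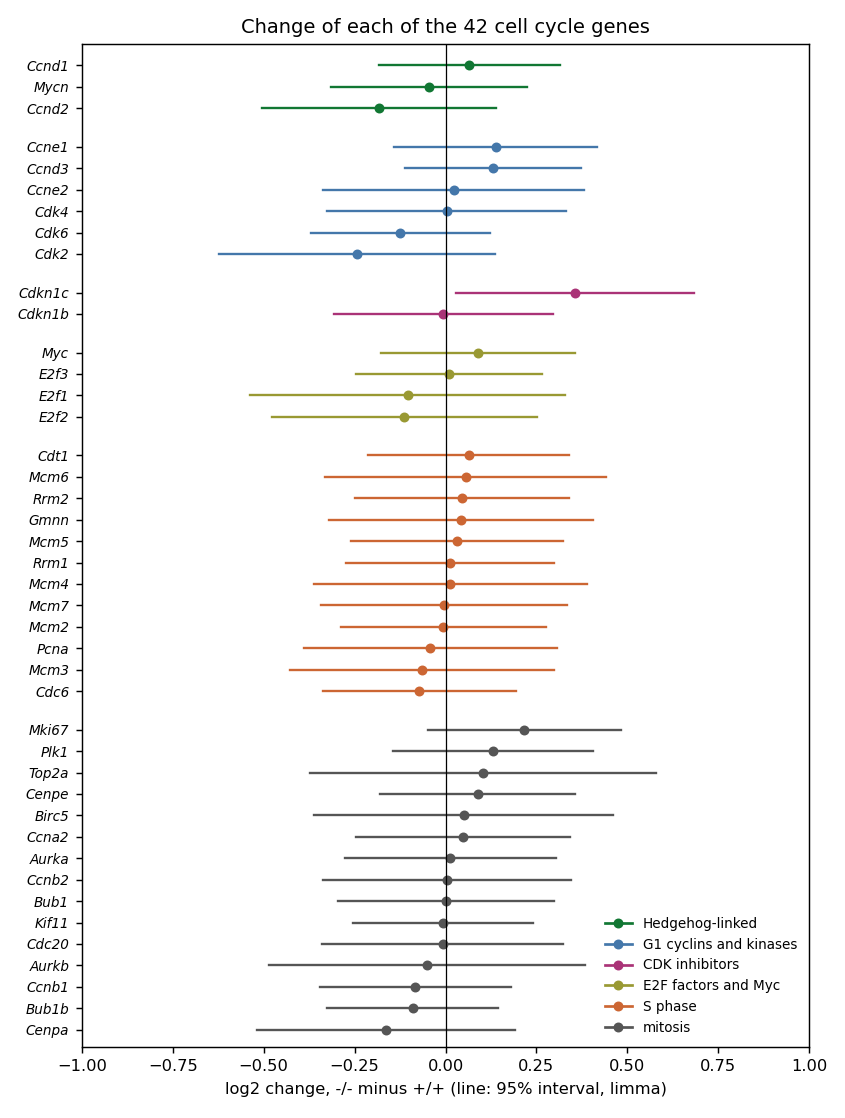
Log2 change of each of the 42 cell cycle genes (points, -/- minus +/+, 4 against 3 pools) with its 95% interval from limma (lines), in 6 groups by role. Only the interval of *Cdkn1c*, 0.03 to 0.68, leaves out 0.

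**Figure D2:**
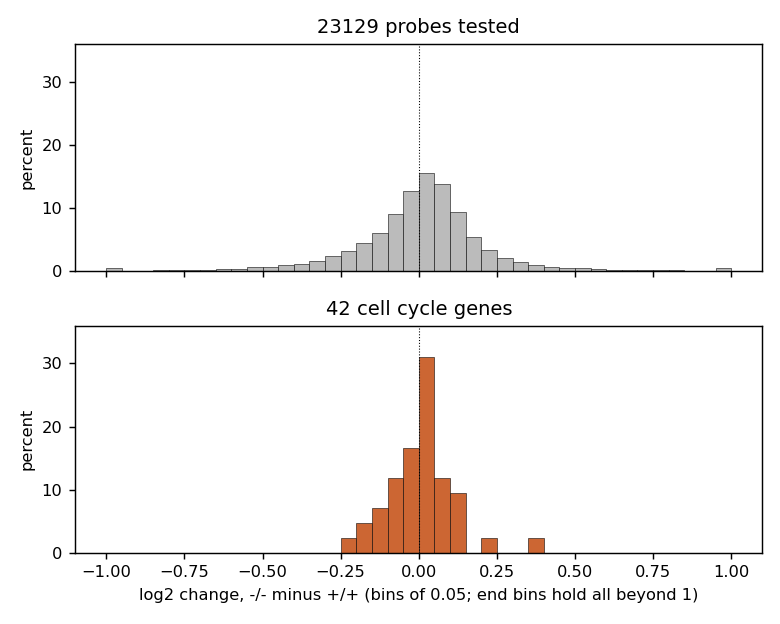
Share of probes in bins of log2 change for the 23129 probes tested (upper) and for the 42 cell cycle genes (lower). The members have an SD of 0.11 and all probes one of 0.24, and 97.6% of members against 82.8% of probes lie within 0.25 of 0. The sets were not matched for brightness.

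Of the Hedgehog-linked genes, none passed a test in either direction. *Ccnd1*, the D-type cyclin that opens G1, read 12.62, 12.70, 12.71 and 12.47 in mutant pools 1 to 4 and 12.58, 12.63 and 12.48 in wild-type pools 1, 3 and 4. The genotypes overlapped, with mutant pools 2 and 3 just above the wild-type range and mutant pool 4 just below it. The change was 0.07 with an interval of −0.18 to 0.31 (limma, unadjusted p = 0.569, exact permutation p = 0.457, two-sided). On slides 1, 3 and 4 it was 0.04, 0.08 and −0.00. The *Ccnd1* probe, at chr7:152116173-152116232 on mm9, was printed 10 times on each array, and the SD of its copies had a median of 0.04, below the SD between mutant pools of 0.11.

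*Ccnd2*, a second D-type cyclin, had the lowest change of the Hedgehog-linked genes. It read 15.76, 15.68, 15.27 and 15.38 in mutant pools 1 to 4, and 15.74, 15.68 and 15.69 in wild-type pools 1, 3 and 4. The wild-type pools lay close together, with an SD of 0.03, mutant pools 3 and 4 lay well below all of them, mutant pool 2 lay level with the lowest, and mutant pool 1 lay above. The change was −0.18 with an interval of −0.50 to 0.14 (limma, unadjusted p = 0.228, exact permutation p = 0.343), and on slides 1, 3 and 4 it was 0.02, −0.41 and −0.31. Its other tested probes, at chr6:127089187-127089246 and chr6:127098696-127098755 on mm9, gave −0.23 each, beside the brightest at chr6:127079694-127079753. On both of these the genotypes also overlapped. Across all alternatives on the scan files the change stayed between −0.26 and −0.10, with no p under 0.05. Without mutant pool 3 it was −0.10.

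*Mycn*, a MYC family factor that promotes growth and division in embryonic progenitors, read 12.98, 13.13, 12.92 and 13.21 in mutant pools 1 to 4, and 13.18, 13.16 and 12.98 in wild-type pools 1, 3 and 4. The genotypes overlapped over most of their range. The change was −0.05 with an interval of −0.31 to 0.22 (limma, unadjusted p = 0.709, exact permutation p = 0.657), and it was −0.20, −0.24 and 0.23 on slides 1, 3 and 4. A dimmer second probe gave −0.16, with mutant pools at 7.23 to 7.39 inside the wild-type range of 7.08 to 7.71.

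**Figure D3:**
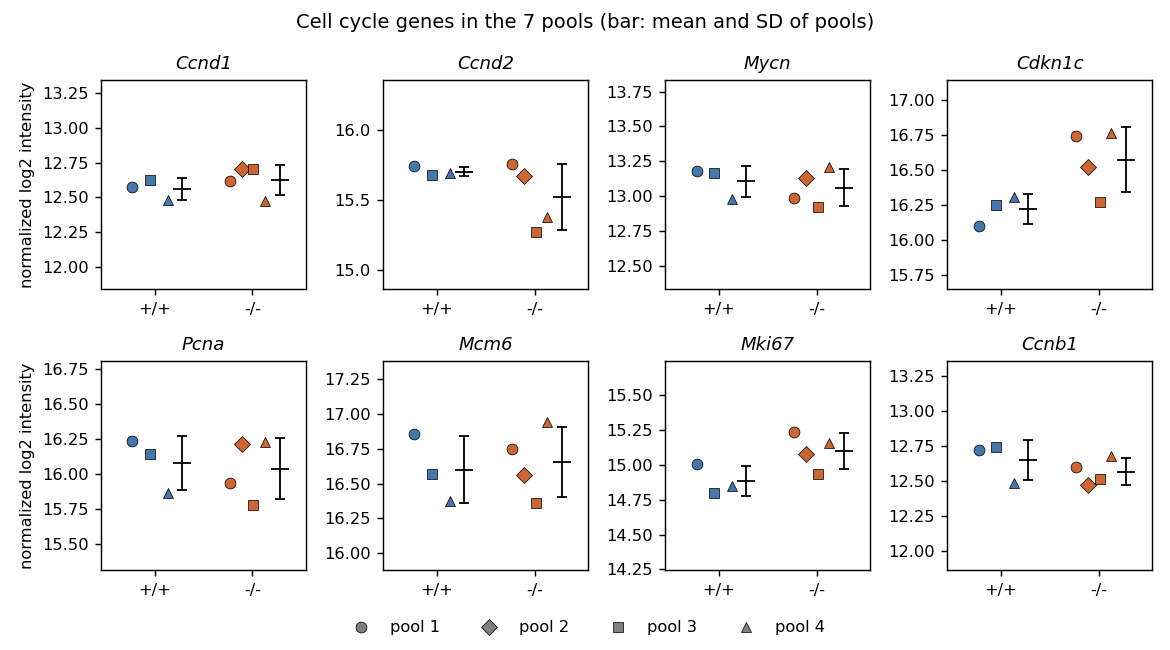
Normalized log2 intensity of 8 cell cycle genes in each pool (points, shape by pool number, which marks the slide for pools 1, 3 and 4), with the mean and SD of the pools of a genotype beside them. Each axis spans the same range. In *Cdkn1c* and *Mki67* mutant pool 3 falls among the wild-type pools, and in the others the ranges of the genotypes also overlap. In *Ccnd2* mutant pools 3 and 4 lie below all wild-type pools.

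The 6 G1 cyclins and kinases had changes from −0.24 to 0.14 with no call. *Ccne1*, the E-type cyclin that activates *Cdk2* at the G1 to S transition, had the largest rise. It read 14.69, 14.88, 14.61 and 14.96 in mutant pools 1 to 4, and 14.60, 14.75 and 14.59 in wild-type pools 1, 3 and 4. Mutant pools 2 and 4 lay above the wild-type range, and the change was 0.14 with an interval of −0.14 to 0.42, while a dimmer *Ccne1* probe gave −0.06. *Cdk2*, the kinase partner of E-type cyclins, had the largest fall of all 42 members. It was also the dimmest member, at 5.94, 5.36, 6.04 and 5.65 in the mutant pools and 6.04, 6.01 and 5.91 in the wild-type pools. Mutant pools 2 and 4 lay below the wild-type range and the others within it. The change was −0.24 with an interval of −0.62 to 0.14 (limma, unadjusted p = 0.181), and −0.11 with slide as a block, a fit in which mutant pool 2 carries no weight.

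Of the other members of this group, *Ccnd3* and *Cdk6*, named after their values were seen, kept their sign on every slide. Under quantile normalization, an alternative described below, only *Cdk6* of these genes did so. *Ccnd3*, the third D-type cyclin, read 13.25 to 13.46 in mutants and 13.20 to 13.29 in wild type, and differed by 0.10, 0.05 and 0.17 on slides 1, 3 and 4. *Cdk6*, a kinase partner of D-type cyclins, read 12.23 to 12.50 against 12.45 to 12.55, and differed by −0.12, −0.08 and −0.29. In all, 4 members were higher on 3 of 3 slides (*Ccnd3*, *Cdkn1c*, *Mki67* and *Plk1*) and 2 were lower on 3 of 3 (*Cdk6* and *E2f2*), beside 16% and 11.5% of all probes tested. As shares of the 42 members these counts are no larger than those of all probes. Under quantile normalization *Ccnd3*, *Cdkn1c*, *Mki67* and *Plk1* differed by −0.04, −0.01, −0.04 and −0.09 on slide 4, so none kept its sign. *Cdk6* and *E2f2* stayed lower on every slide under that normalization.

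Of the CDK inhibitors, *Cdkn1c* was the only member past an unadjusted p of 0.05. It encodes p57, an imprinted inhibitor of cyclin kinases known to restrain embryonic growth. It read 16.75, 16.52, 16.27 and 16.76 in mutant pools 1 to 4, and 16.10, 16.25 and 16.31 in wild-type pools 1, 3 and 4. Mutant pools 1, 2 and 4 lay above all wild-type pools, and mutant pool 3 lay among them. The change was 0.36, or 1.28-fold (1.02 to 1.61), with an unadjusted p of 0.0365 and an adjusted p of 0.549 (limma). The exact permutation test gave p = 0.0857, where the lowest that 4 against 3 pools allow is 0.0286. On slides 1, 3 and 4 the differences were 0.64, 0.02 and 0.46, and under quantile normalization 0.71, 0.28 and −0.01. With slide as a block the change was 0.37 with an unadjusted p of 0.0516 (limma).

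The *Cdkn1c* result rested on several pools. The unadjusted p rose to 0.0915 without mutant pool 1, 0.082 without mutant pool 4, 0.113 without wild-type pool 1 and 0.0729 without wild-type pool 3, and fell to 0.00818 without mutant pool 3 (limma). The change stayed between 0.29 and 0.46 over all alternatives on the scan files, and the unadjusted p was under 0.05 in 12 of 21 alternatives. The single *Cdkn1c* probe lies at chr7:150644753-150644812 on mm9.

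*Cdkn1b*, which encodes p27, an inhibitor of *Cdk2* complexes, read 9.35, 9.64, 9.64 and 9.55 in the mutant pools and 9.75, 9.36 and 9.54 in the wild-type pools. The mutant values lay almost within the wild-type range, and the change was −0.01 with an interval of −0.31 to 0.30. A dimmer *Cdkn1b* probe, printed 10 times per array, gave 0.29 with mutant pools from 6.62 to 8.02 and wild-type pools from 6.66 to 7.40. Its copies on an array had a median SD of 0.06, while its SD was 0.68 between mutant pools and 0.42 between wild-type pools, so that the spread of this probe lay between pools and not between copies.

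The E2F factors and *Myc* had changes from −0.11 to 0.09. *E2f2*, an activator E2F, read 11.90, 12.22, 11.72 and 11.72 in the mutant pools and 12.25, 11.91 and 11.85 in the wild-type pools. Mutant pools 3 and 4 lay below the wild-type range, and the differences on slides 1, 3 and 4 were −0.35, −0.19 and −0.12. The change was −0.11 with an interval of −0.48 to 0.25. *Myc*, the founding member of the family of *Mycn*, read 12.14, 12.23, 12.18 and 12.47 in the mutant pools and 12.24, 12.14 and 12.12 in the wild-type pools. Mutant pool 4 was the highest, and the change was 0.09 with an interval of −0.18 to 0.36, with 0.01 and −0.03 from its other probes. *E2f1*, another activator E2F, had a change of −0.10 and differed by 0.15, −0.17 and −0.33 on the slides.

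The 12 S phase genes had changes near 0, with an SD of 0.05 beside 0.10 for the mitosis genes. They comprise the licensing factors *Cdc6*, *Cdt1* and its inhibitor *Gmnn*, the helicase subunits *Mcm2* to *Mcm7*, the polymerase clamp *Pcna* and the ribonucleotide reductase subunits *Rrm1* and *Rrm2*. Their changes ran from −0.07 (*Cdc6*) to 0.06 (*Cdt1*), 7 above and 5 below 0, with none past an unadjusted p of 0.05. Their median was 0.01, and it was −0.03 to −0.02 under the 75th percentile, quantile, uncorrected and local background alternatives. Their intervals all lay between −0.43 and 0.44. The group was not measured more tightly than other genes, since its members had a median SD of 0.18 between pools within a genotype. Their deviations from the genotype means over the 7 pools had a mean pairwise correlation of 0.71. It was 0.37 for the mitosis members and 0.19 for 7287 probes at least as bright as the dimmest S phase member. That member was *Cdc6*, at a mean of 10.96, while *Mcm6* lay at 16.63, so these correlations are not compared at like brightness. The 12 changes are therefore not separate measurements, and their small SD is not a measure of precision.

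*Cdt1* read 15.36, 15.39, 15.22 and 15.58 in the mutant pools and 15.43, 15.34 and 15.21 in the wild-type pools, an interval of −0.21 to 0.34. *Cdc6* read 10.86 to 10.97 in the mutant pools and 10.82 to 11.18 in the wild-type pools, an interval of −0.34 to 0.19. In *Cdc6* the mutant pools lay wholly inside the wild-type range. *Pcna*, chosen as the best known marker of replicating cells, read 15.93, 16.21, 15.78 and 16.23 against 16.23, 16.14 and 15.86, with a change of −0.04 (interval −0.39 to 0.31). *Mcm6* read 16.75, 16.56, 16.36 and 16.94 against 16.86, 16.57 and 16.38, with a change of 0.05 (interval −0.33 to 0.44). In both genes the pools of a genotype lay further apart than the genotype means.

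The 15 mitosis genes had changes from −0.16 (*Cenpa*) to 0.22 (*Mki67*), 9 above and 6 below 0, with a median of 0.00 (−0.05 to −0.03 under the same 4 alternatives) and none past an unadjusted p of 0.05. *Mki67*, which encodes the Ki-67 protein of cycling cells, read 15.24, 15.08, 14.93 and 15.16 in mutant pools 1 to 4, and 15.00, 14.80 and 14.85 in wild-type pools 1, 3 and 4. Mutant pools 1, 2 and 4 lay above all wild-type pools, and mutant pool 3 lay below wild-type pool 1. The change was 0.22 with an interval of −0.05 to 0.48 (limma, unadjusted p = 0.0977, adjusted p = 0.811, exact permutation p = 0.0857). It was 0.23, 0.13 and 0.31 on slides 1, 3 and 4, and 0.25, 0.24 and −0.04 under quantile normalization. A dimmer *Mki67* probe gave 0.30, with mutant pools at 12.52, 12.51, 12.00 and 12.10 and wild-type pools at 11.77, 11.96 and 12.23, so that wild-type pool 4 lay above mutant pools 3 and 4. The unadjusted p of *Mki67* was under 0.05 in 1 of 21 alternatives, 0.0248 with array weights.

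*Cenpa*, the histone variant of centromeres, read 12.14, 11.59, 12.00 and 12.18 in the mutant pools and 12.20, 12.16 and 12.07 in the wild-type pools. Mutant pool 2, whose array may have leaked, was the lowest, and the change of −0.16 (interval −0.52 to 0.19) was −0.03 without that pool. *Aurkb*, a kinase that corrects chromosome attachment, was likewise lowest in mutant pool 2, at 11.27 against 11.65 to 12.17 in the other mutant pools. *Top2a*, a topoisomerase that untangles sister chromatids, read 11.75, 11.66, 11.15 and 11.16 against 10.99, 11.32 and 11.67, and differed by 0.76, −0.17 and −0.51 on the slides. Of the 42 members it had the widest range of slide differences. *Plk1*, a kinase of mitotic entry, read 15.13 to 15.50 against 15.09 to 15.26, with a change of 0.13 (interval −0.15 to 0.41). Apart from *Mki67* and *Cenpa*, these genes were named after their values were seen.

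**Figure D4:**
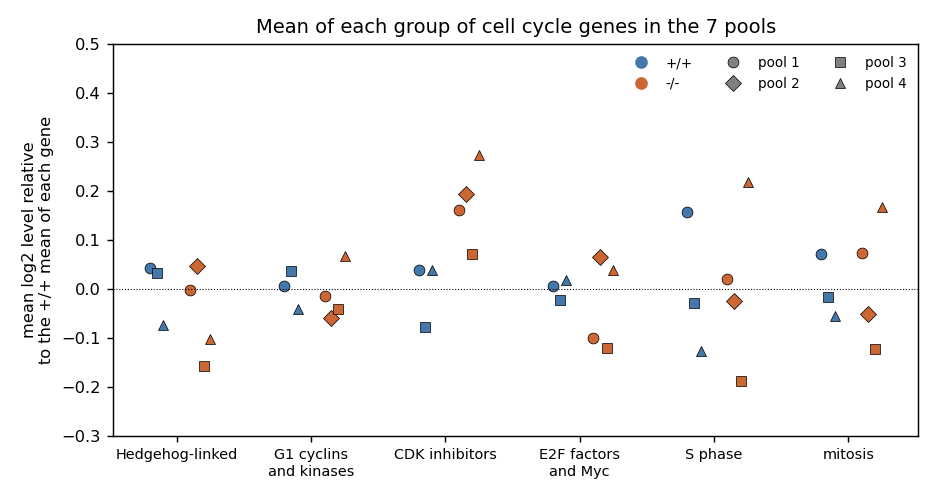
Mean log2 level of the genes of each group in each pool, relative to each gene's wild-type mean (points, colour by genotype, shape by pool number). The S phase mean runs from −0.19 in mutant pool 3 to 0.22 in mutant pool 4, and the wild-type pools, at −0.13 to 0.16, lie within that range.

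The S phase genes differed more between pools of a genotype than between genotypes, and they did so together. Relative to the wild-type mean, their mean level was 0.02, −0.02, −0.19 and 0.22 in mutant pools 1 to 4, and 0.16, −0.03 and −0.13 in wild-type pools 1, 3 and 4. Within slides the sign turned. The mutant mean was lower by 0.14 on slide 1, with 11 of 12 genes lower, and by 0.16 on slide 3, with 12 of 12 lower, but higher by 0.35 on slide 4, with 12 of 12 higher. The mitosis mean differed by 0.00, −0.11 and 0.22 on these slides, with 10, 12 and 3 of 15 genes lower.

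Other bright probes had median differences of the same signs. Among 7287 probes at least as bright as the dimmest S phase member, the median difference was −0.03, −0.06 and 0.23 on slides 1, 3 and 4, and 81.8% were higher on slide 4. On that slide 61.8% of probes were well above background for mutant pool 4 and 70.6% for wild-type pool 4. Under quantile normalization, which gives all arrays the same distribution of values, the S phase mean differed by −0.09, −0.02 and 0.02 on the slides and the mitosis mean by 0.02, −0.03 and −0.04. The cardiomyocyte marker mean also differed between pools, and it was lowest in both pools 4, at −0.41 in the mutant and −0.48 in the wild type. The part of brightness and of cardiomyocyte RNA in the slide differences was not tested.

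**Figure D5:**
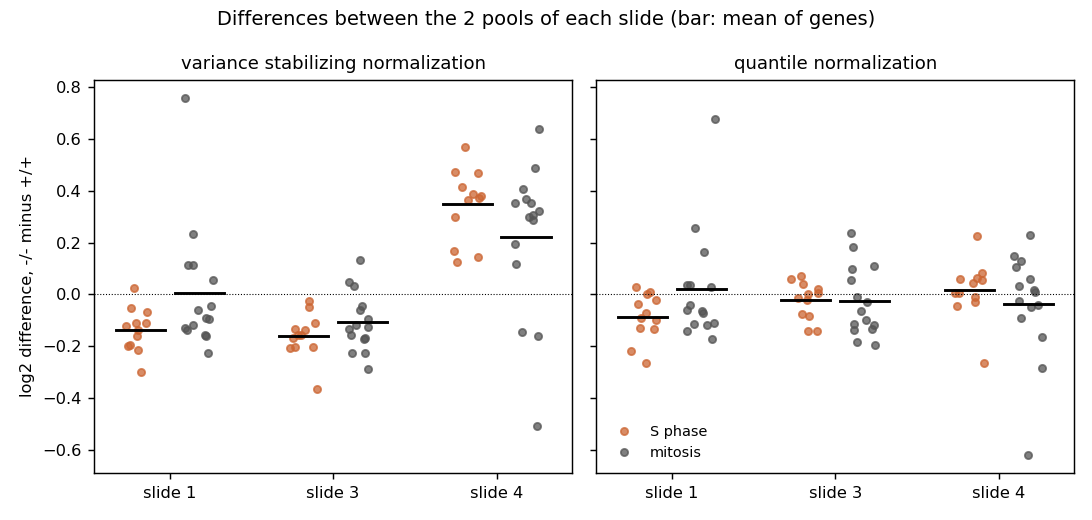
Difference between the mutant and the wild-type pool of slides 1, 3 and 4 for each S phase and each mitosis gene (points) with the mean of the genes (bars), on the log2 scale, under variance stabilizing normalization (left) and quantile normalization (right). On slide 4 the S phase mean is 0.35 on the left and 0.02 on the right.

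Other cell cycle genes were counted in lists outside the 42. Over all probes tested, 0.558% passed the adjusted threshold, and 3.96% rose and 3.99% fell at an unadjusted p under 0.05 (limma). All mutant pools lay above the wild-type pools in 4.78% of probes and below them in 3.56%. Of 38 other replication genes, 0 were past the adjusted threshold, 0 rose and 1 fell at an unadjusted p under 0.05, and their median change was 0.02. *Pola1*, the catalytic subunit of the polymerase that starts each new strand, was that gene. It read 11.25, 11.39, 11.61 and 11.25 in the mutant pools and 11.79, 11.78 and 11.94 in the wild-type pools, all mutant pools lower, with a change of −0.46 (limma, unadjusted p = 0.00507, adjusted p = 0.21).

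Of 58 other mitosis genes, 0 were past the adjusted threshold, and their median was 0.02. At an unadjusted p under 0.05 (limma), 0 rose and 1 fell, against 3.96% and 3.99% of all probes tested. That gene, *Cdc25b*, a phosphatase that activates cyclin kinases before mitosis, read 10.99, 10.29, 10.56 and 10.98 against 11.48, 11.05 and 11.03, all mutant pools lower, a change of −0.48 (limma, unadjusted p = 0.041, adjusted p = 0.575). *Cenpf*, a kinetochore protein, had all mutant pools, at 13.56 to 13.73, above the wild-type pools, at 13.38 to 13.43. The change was 0.22 (limma, unadjusted p = 0.0577), and 4.78% of all probes tested had the same lack of overlap. The largest rise was 0.32 in *Ckap5*, a microtubule polymerase, with an interval of −0.54 to 1.17. The 20 tested of 21 other G1 regulators had no call, with changes from −0.37 in *Ccng2*, an atypical cyclin, to 0.18 in *Cdc25a*, a phosphatase of the G1 to S transition.

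Of 7 partners in the Myc network, 1 rose and 0 fell at an unadjusted p under 0.05 (limma), against 3.96% and 3.99% of all probes tested. With 7 genes, these counts are not read as a result about the list. *Mxd4*, a repressor that competes with Myc proteins for their partner *Max*, read 11.38, 11.36, 11.25 and 11.17 in the mutant pools and 11.00, 10.95 and 10.69 in the wild-type pools. All mutant pools were higher, and the change was 0.41 (limma, unadjusted p = 0.00796, adjusted p = 0.272). *Mxi1*, a repressor of the same family, had all mutant pools, at 10.26 to 10.38, below the wild-type pools, at 10.44 to 10.59. The change was −0.18 (limma, unadjusted p = 0.113), and 3.56% of all probes tested had the same lack of overlap. The largest fall was −0.42 in *Mycl1*, the third *Myc* gene, with an interval of −1.03 to 0.18.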

How the data were processed

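The deposited scan files of 7 arrays hold spot and background intensity, read by the authors with Agilent Feature Extraction 10.5.1.1, and the authors' own table holds log2 values whose array medians run from 5.86 to 10.34, so that its scale is log2 but its centring is unknown. Groups and pool numbers came from the labels, whose strain and genotype entries appear exchanged. As in the authors' methods, outlier spots (155 to 206 per array) were left out and mean signals were background corrected, normalized by VSN and expressed as log2. The correction was normexp with the mean and SD of 153 negative control spots and an offset of 50, and VSN was written anew (trimming share 0.9, 7 iterations, 5 strata). Spots of a probe were averaged, and the brightest probe stood for a gene. Tested were the 23129 probes, for 14896 genes, that the array names and that stood well above background throughout at least 1 genotype.

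The test was limma 3.58.1 in R 4.3.3, p-values being adjusted by Benjamini-Hochberg across all of these probes, and single values also with an exact two-sided permutation test over the 35 splits of the pools. The authors' SAM test was not run. The labels do not state how many embryos a pool held. Members had 73 probes, 64 of them tested; 17 members had several, and none disagreed in sign by over 0.3. By accession, 39 members matched RefSeq under the same symbol. Array coordinates are on mm9 and promoter sequences are RefSeq's on GRCm38.p6.

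The pool number marks a shared slide. Deviations from the genotype means correlated at 0.19, 0.24 and 0.03 between arrays of a slide, and at −0.22 to 0.19 between other pairs, and slide was an alternative as a fixed and a random block. The members and lists were chosen with earlier results of these data known. Named were the 3 Hedgehog-linked genes, the largest rise and fall of every other group, members past an unadjusted p of 0.05 or without overlap, members whose probes disagreed, the largest rise and fall of each further list, and *Shh*, *Gli1* and *Hhip*. Other genes named were chosen after their values were seen. A gene that this rule names is not reported here. Scripts were tested on simulated data. Figures used matplotlib 3.10.9 in Python 3.11.15.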

Additional observations from a re-analysis of the deposited data

Results flagged for a closer look

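In the group of 4 mutant pools, *Cdk4*, the kinase partner of D-type cyclins, read 14.28 in mutant pool 4, apart from 13.87 to 13.92 in the other mutant pools. The wild-type pools read 13.79, 14.01 and 14.17, so that wild-type pool 4, on the same slide, was also the highest of its genotype. This was 1 of 48 values looked at in this way, the 42 members and the means of 6 groups, and chance sets apart about 1 in 20 groups.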

How the results depend on the processing

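No member passed an adjusted p of 0.05 under any of 21 alternatives, and none was lower at an unadjusted p under 0.05. The number of members higher at that p, 1 here, was 0 with 75th percentile scaling, the authors' values, these set to 1 median per array and the replicate block, was 2 with array weights, and was 0 to 1 with a pool left out. Probes called in all, 129 here with 52.7% of them lower in mutants, were 54 with 75th percentile scaling (66.7% lower), 33 without the filter on dim probes (69.7%), 205 with the mean of a gene's probes, 445 with array weights, and 0 with the authors' values in either form. With the replicate block, which pairs the pools of a slide, 11 were called. With a pool left out the number ran from 12 to 136. It was 14 without wild-type pool 1, 12 without mutant pool 3, 30 without wild-type pool 3, 35 without wild-type pool 4, 37 without mutant pool 2 and 73 without mutant pool 4. In the block fit *Ccnd1*, *Ccnd2* and *Mycn* were 0.04, −0.23 and −0.07, and it changed no call on a member but that of *Cdkn1c* at the unadjusted p.

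With the authors' values *Ccnd1* was −0.47, *Mycn* −0.57, the S phase median −0.18 and the mitosis median −0.23, where the median of all probes was −0.54. Set to 1 median per array, an alternative added after the data were seen, *Ccnd2* was 0.29 and these medians were 0.43 and 0.38. In this table mutant pool 2 stood apart, with a correlation of 0.977 with its own processed signal against 0.998 or more in the others. Without that pool *Ccnd1*, *Ccnd2* and *Mycn* were 0.00, −0.27 and −0.11, the medians 0.00 and −0.01, and 7 probes were called. Leaving out a pool from the values reported gave −0.07 to 0.08 for the S phase median, −0.06 to 0.08 for the mitosis median, 0.02 to 0.12 for *Ccnd1*, −0.26 to −0.10 for *Ccnd2* and −0.11 to 0.00 for *Mycn*. Under another scaling or background correction of the scan files 9 to 11 members turned sign, the largest change among them being 0.05, and 3 to 15 did so with a pool left out. With local background, spots whose background exceeded 3 times the array median were left out. The causes were not tested.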
